A study of Mus musculus with 8 samples.

Results

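Bone morphogenetic proteins (BMPs) and the genes that receive and answer their signal were followed in adipose precursor cells (APs) of mice fed a high-fat diet (HFD) for 3 days. The 9 genes were the ligands Bmp2 and Bmp4, the receptors Bmpr1a and Bmpr2, the secreted antagonist Grem1, the inhibitory Smad6 and the target genes Id1, Id2 and Id3. They were chosen by name from the 19938 genes that had a probe set annotated with a single gene symbol, and each of the 9 had exactly 1 such probe set. RNA of freshly isolated APs was measured on 8 Affymetrix Mouse Gene 1.0 ST arrays, which carry a group of short probes (a probe set) for most mouse genes. All mice were male C57BL/6J animals aged 7 to 8 weeks with no genetic change. There were 4 groups of 2 arrays: APs of the inguinal subcutaneous depot (scAPs) from mice on standard diet (SD), scAPs after 3 days of HFD, APs of the perigonadal visceral depot (viAPs) on SD, and viAPs after 3 days of HFD. Each array held pooled RNA of 3 mice, so p-values measure the spread between such pools. The cells were the fraction left after beads against CD45 and CD31 had taken out blood and endothelial cells and captured with SCA-1 beads, and this enriched fraction can still hold other cell types.

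BMPs are secreted ligands that bring together type I receptors such as Bmpr1a and type II receptors such as Bmpr2. The activated receptors phosphorylate receptor Smads, which join Smad4, enter the nucleus and switch on genes that include the Id family. Gremlin (Grem1) traps ligands outside the cell, and Smad6 blocks the signal inside it. In white adipose tissue, BMP2 and BMP4 are known to promote the commitment of precursors to the adipocyte lineage, and Id proteins bind and hold back basic helix-loop-helix transcription factors.

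Levels are log2 of the deposited intensity, so a difference of 1 is a 2-fold difference, and the level of one probe set cannot be set against that of another. The median over all probe sets lay between 5.58 and 5.75 on the 8 arrays. Genes were tested with limma, a linear model that shares information on the spread across probe sets. Of the 9 genes, 4 (Bmp2, Bmp4, Bmpr1a and Bmpr2) were among the 3076 probe sets that passed the filter of the study (3 or more arrays above a log2 level of 7, and a variability in the upper tercile), and their p-values were adjusted over that set. The p-values of Grem1, Smad6, Id1, Id2 and Id3 were adjusted over all 21789 probe sets with 1 symbol. A gene was said to rise or fall at an adjusted p under 0.05. Bmp2 exceeded the level of 7 only on the 4 HFD arrays and so passed the filter through the diet group in which it was high. For this reason its p adjusted over all 21789 probe sets is given as well.

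The array labelled SD viAP replicate 4 stood apart from its label. Tbx15, a subcutaneous depot gene, was at 9.77 on it, against 4.70, 3.91 and 4.09 on the other viAP arrays and 9.34 to 9.67 on the 4 scAP arrays. Tcf21, a visceral depot gene, was at 5.32 on it, against 9.61, 10.43 and 10.61 on the other viAP arrays and 5.04 to 5.52 on scAP arrays. Over all 35556 probe sets it correlated at 0.976 with SD scAP replicate 1, at 0.983 with SD scAP replicate 2 and at 0.977 with SD viAP replicate 3. Results that rest on this array are given with and without it. AP markers (9 measured of 10 listed) had higher sums on HFD in viAPs, 22099 to 24606 on SD and 26338 to 27135 on HFD. In scAPs the sums were 24772 to 28710 on SD and 28325 to 29196 on HFD. Of the 9, Cd24a was low, at 5.39 on both HFD viAP arrays. Markers of mature adipocytes (5 measured of 6 listed) had lower sums on HFD, 459 to 465 on SD and 316 to 317 on HFD in scAPs and 316 to 521 on SD and 225 to 235 on HFD in viAPs. Of the 5, 2 fell in viAPs and 0 in scAPs, with median changes of -0.58 and -0.36. In viAPs 5.36% of the filtered probe sets (defined above) and 1.95% of all 21789 fell, and in scAPs 1.98% and 0.11%. Both HFD arrays lay below both SD arrays for 2 of the 5 in viAPs and 4 in scAPs (31.2% and 18.8% of all 21789). Blood cell markers (7 of 8) summed to 326 to 336 on SD and 316 to 330 on HFD in scAPs and to 382 to 454 and 320 to 322 in viAPs, and 0 of the 7 passed in either depot. Mesothelial markers (7 of 7) summed to 309 to 358 on SD and 300 to 337 on HFD in scAPs. In viAPs their sums were 343 to 923 on SD and 783 to 926 on HFD. Pericyte and smooth muscle markers (8 of 8) summed to 938 to 1044 on SD and 1064 to 1095 on HFD in scAPs. In viAPs their sums were 871 to 1210 on SD and 793 to 1043 on HFD. The part of these lists in the diet changes below was not tested.

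Promoter windows from RefSeq (GRCm38.p6), each 300 bases long from 250 bases before to 50 after the transcript start used in that table, were matched for 7 of the 9 genes (Bmp4, Bmpr1a, Bmpr2, Grem1, Smad6, Id2 and Id3). Shown here are those of Bmpr1a (chr14:34502497-34502796, minus strand) and Bmpr2 (chr1:59764029-59764328, plus strand), the receptor genes that rose together in viAPs, beside those of Id2 (chr12:25096043-25096342, minus strand) and Id3 (chr4:136143572-136143871, plus strand), target genes that did not pass the test. The start used for Bmpr1a lies inside the span of the gene given below and not at its outer end. Capitals mark GGCGCC, a GC-rich word bound by BMP-activated Smads, and CAGAC or its reverse complement GTCTG, the Smad box.
Bmpr1a: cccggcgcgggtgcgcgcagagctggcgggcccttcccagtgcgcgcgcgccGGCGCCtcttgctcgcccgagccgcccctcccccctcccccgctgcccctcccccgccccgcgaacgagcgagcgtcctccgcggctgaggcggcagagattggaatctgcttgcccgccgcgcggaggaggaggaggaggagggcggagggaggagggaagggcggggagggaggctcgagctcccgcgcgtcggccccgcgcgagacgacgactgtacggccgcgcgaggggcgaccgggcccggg
Bmpr2: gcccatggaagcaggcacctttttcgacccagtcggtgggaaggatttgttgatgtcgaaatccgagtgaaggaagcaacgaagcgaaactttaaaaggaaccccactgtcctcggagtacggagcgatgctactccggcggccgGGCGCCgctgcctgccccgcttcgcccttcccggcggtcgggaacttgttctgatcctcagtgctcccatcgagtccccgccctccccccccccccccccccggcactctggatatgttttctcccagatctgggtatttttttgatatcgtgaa
Id2: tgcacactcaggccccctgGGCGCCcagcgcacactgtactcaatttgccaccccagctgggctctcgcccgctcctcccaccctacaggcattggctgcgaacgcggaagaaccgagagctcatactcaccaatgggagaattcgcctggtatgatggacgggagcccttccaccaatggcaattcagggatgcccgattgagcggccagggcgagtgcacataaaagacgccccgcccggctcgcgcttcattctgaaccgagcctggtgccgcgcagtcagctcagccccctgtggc
Id3: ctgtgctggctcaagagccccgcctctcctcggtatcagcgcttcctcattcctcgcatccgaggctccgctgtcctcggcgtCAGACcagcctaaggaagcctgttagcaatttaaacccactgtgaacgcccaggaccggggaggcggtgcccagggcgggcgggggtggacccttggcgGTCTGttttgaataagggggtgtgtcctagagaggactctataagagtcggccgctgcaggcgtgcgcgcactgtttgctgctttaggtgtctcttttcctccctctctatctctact
GGCGCC, which reads the same on both strands, occurred once in the windows of Bmpr1a, Bmpr2, Id2 and Grem1 and in 11.9% of all 32851 windows. CAGAC or GTCTG occurred 2 times each in the windows of Id3 and Grem1, was not found in the other 5, and was present in 49.6% of all windows. The matches of the 2 words did not overlap in these windows. A match is a description of the letters in the window and not evidence of binding.

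Bmp2 had the largest diet change of the 9 genes in both depots, except that in viAPs without SD viAP replicate 3 it changed by 0.72 and Bmpr1a by 0.84. Bmp2 (probe set 10476395, chr2:133552159-133562896 in GRCm38.p6) encodes a ligand that signals through Bmpr1a and Bmpr2. Its level was 6.44 and 6.73 on the SD scAP arrays and 8.46 and 8.38 on the HFD scAP arrays. In viAPs it was 6.61 and 6.87 on SD and 7.69 and 7.50 on HFD. Within each depot both HFD arrays thus lay above both SD arrays, and the HFD scAP arrays lay above all others.

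Bmp2 rose 3.57-fold in scAPs (log2 change 1.84, SE 0.16, limma adjusted p = 0.0021, and 0.00993 when adjusted over all 21789 probe sets). Under the alternatives other than leaving out an array, the scAP change was 1.68 to 1.94 (adjusted p from 0.000343 to 0.0498). With each array left out in turn it was 1.69 to 1.98. Of the 3076 filtered probe sets, 99.7% had a smaller change in scAPs. Bmp2 entered that set through its HFD arrays, so its ranks in the set describe it and carry no test. In viAPs Bmp2 rose 1.80-fold (log2 change 0.85, SE 0.16, limma adjusted p = 0.00274, and 0.0157 over all 21789), and 76.1% of the filtered probe sets had a smaller change there. Without SD viAP replicate 4 the viAP change was 0.98 (SE 0.17, adjusted p = 0.00982). The order of the group means was 6.59 ± 0.20 in SD scAPs, 6.74 ± 0.18 in SD viAPs, 7.59 ± 0.13 in HFD viAPs and 8.42 ± 0.05 in HFD scAPs (SD of n = 2 arrays each). The SD groups, neighbours in this order, differed by 0.16 (95% CI -0.20 to 0.51), which did not pass the test.

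The HFD arrays of the 2 depots differed in Bmp2. It was 0.83 lower on the log2 scale in viAPs than in scAPs on HFD (value -0.83, SE 0.16, limma adjusted p = 0.0172, and 0.0439 over all 21789), where 3.8% of the filtered probe sets were lower and 6.31% higher (0.436% and 1.07% over all 21789). Bmp2 was the only one of the 9 genes to pass in this comparison. This call was lost without eBayes (adjusted p = 0.21) and when the model was fitted over all probe sets of the table (adjusted p = 0.0508). It was also lost when any of the 4 HFD arrays was left out, with values of -0.92 to -0.74. Leaving out such an array leaves 1 array in a compared group, and nearly all calls of this comparison were then lost. That loss is therefore not particular to Bmp2. The difference between the diet changes, viAPs minus scAPs, was -0.99 for Bmp2 (SE 0.22, 95% CI -1.49 to -0.48), which did not pass (limma adjusted p = 0.166, and 0.324 over all 21789). None of the 9 genes passed this test of interaction, for which 0% of the filtered probe sets and 0.00459% of all 21789 had a larger change in viAPs and 0% a smaller one. The Bmp2 value was -1.11 without SD viAP replicate 3, where replicate 4, the array that stood apart, was the lone SD viAP array. Without replicate 4 it was -0.86. These comparisons share arrays with the diet comparisons.

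Endothelial markers were mostly higher on HFD in scAPs, and in viAPs they went both ways. Of 15 endothelial markers, 14 were higher on both HFD scAP arrays than on both SD scAP arrays (21.7% of all 21789 probe sets). Against 36.2% of the filtered probe sets and 1.06% of all 21789, 9 of the 15 markers rose in scAPs, with a median change of 0.97. Their summed intensity was 1831 to 1907 on SD scAP arrays and 3190 to 3238 on HFD scAP arrays. Cdh5, which encodes an endothelial cadherin, was at 6.95 and 7.01 on SD scAP arrays and at 8.88 and 8.74 on HFD scAP arrays. In viAPs 7 of the 15 were lower on both HFD arrays and 2 were higher (31.2% and 28.9% of all 21789). Against 67.3% of the filtered probe sets and 8.45% of all 21789, 1 of the 15 rose there, and the median change was -0.21. The marker sums in viAPs were 1499 to 1503 on SD and 1632 to 1718 on HFD. The summed intensity was thus higher on HFD in viAPs too, while the median change was negative. Between HFD viAPs and HFD scAPs, 9 of the 15 were lower in viAPs at an adjusted p under 0.05, with a median difference of -1.04. The shares lower in that comparison were 3.8% of the filtered probe sets and 0.436% of all 21789. Bmp2 is itself expressed by endothelial cells, and the part of this list in the Bmp2 change of either depot was not tested. In these bulk samples a change in the share of a cell type and a change in RNA per cell cannot be told apart.

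**Figure D1:**
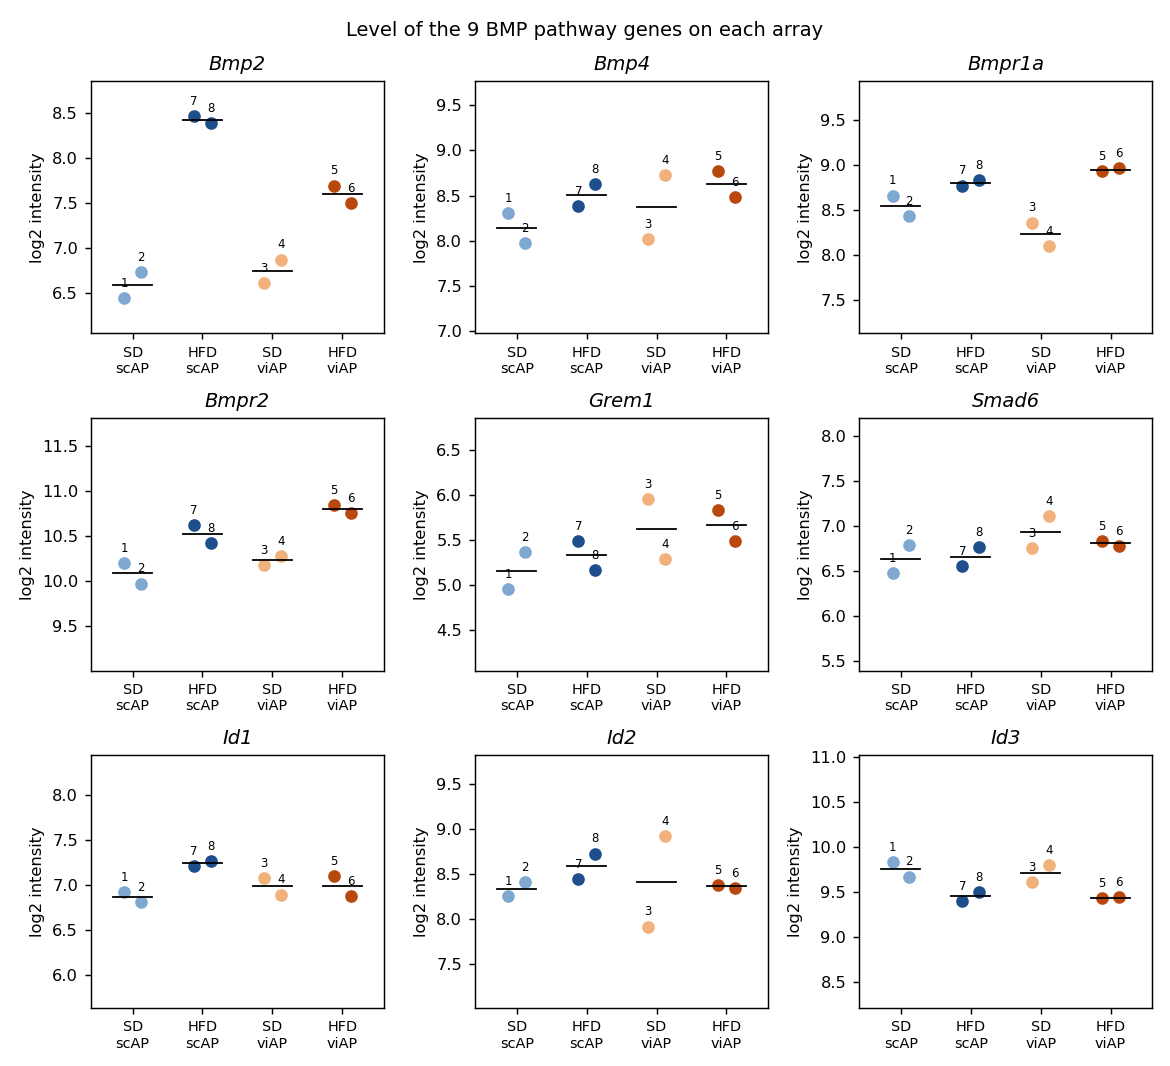
Level (log2 intensity) of the 9 genes on each of the 8 arrays, in 4 groups. Each point is an array with its number from the labels, each bar is the mean of 2 arrays, and every panel spans the same 2.8 log2 units. Bmp2 is highest on the HFD scAP arrays, while SD viAP replicate 4 is the highest point for Id2 and Smad6.

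Bmp4 did not pass the test in either depot. Bmp4 (probe set 10419261, chr14:46383525-46390669), the ligand most closely related to Bmp2, was at 8.31 and 7.97 on SD and 8.38 and 8.63 on HFD in scAPs. In viAPs it was at 8.02 and 8.73 on SD and 8.77 and 8.48 on HFD. The HFD and SD arrays did not overlap in scAPs and overlapped in viAPs, where SD viAP replicate 4 was near the HFD arrays. The log2 change was 0.37 in scAPs (95% CI -0.18 to 0.92, limma adjusted p = 0.239) and 0.25 in viAPs (95% CI -0.30 to 0.80, adjusted p = 0.356). Without SD viAP replicate 4 the viAP change was 0.60 (SE 0.22, adjusted p = 0.0559). Over both depots the change was 0.31 (adjusted p = 0.123), and without that array 0.49 (adjusted p = 0.0214).

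Both receptor genes rose in viAPs, and Bmpr2 also rose in scAPs. Bmpr1a (probe set 10418927, chr14:34411061-34503336) encodes a type I receptor kinase. It was at 8.36 and 8.10 on SD and 8.93 and 8.96 on HFD in viAPs, and at 8.66 and 8.43 on SD and 8.77 and 8.83 on HFD in scAPs. The HFD arrays lay above the SD arrays in both depots, by a narrow margin in scAPs. Bmpr1a rose 1.64-fold in viAPs (log2 change 0.71, SE 0.14, limma adjusted p = 0.00387), and after a second quantile normalization the change was 0.37 (adjusted p = 0.0469). Its scAP change of 0.25 (95% CI -0.07 to 0.58, adjusted p = 0.18) did not pass, and the difference between the depots' changes, 0.46 (95% CI -0.01 to 0.92, adjusted p = 0.318), did not pass either. Without SD viAP replicate 4 its viAP change was 0.58 (adjusted p = 0.0225).

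Bmpr2 (probe set 10346651, chr1:59764279-59878081) encodes the type II receptor kinase that activates type I receptors. It was at 10.18 and 10.28 on SD and 10.84 and 10.75 on HFD in viAPs, and at 10.20 and 9.97 on SD and 10.62 and 10.42 on HFD in scAPs. All 4 HFD arrays lay above all 4 SD arrays, as was the case for 11% of all 21789 probe sets. Bmpr2 rose 1.49-fold in viAPs (log2 change 0.57, SE 0.14, limma adjusted p = 0.00794) and 1.35-fold in scAPs (log2 change 0.43, SE 0.14, adjusted p = 0.0413). Its scAP call was lost under 6 of the alternatives other than leaving out an array (adjusted p from 0.0555 to 0.241) and without any of 5 of the 8 arrays (SD scAP replicate 2 and each HFD array, adjusted p from 0.0738 to 0.193). Its viAP call was lost without HFD viAP replicate 5 (0.53, adjusted p = 0.0638) and after a second quantile normalization (0.29, adjusted p = 0.1).

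These rises have to be read against the rest of the table. In viAPs 67.3% of the 3076 filtered probe sets rose and 5.36% fell, and in scAPs 36.2% rose and 1.98% fell. The median change of the filtered probe sets was 0.63 in viAPs and 0.40 in scAPs, whereas over all probe sets with 1 symbol it was -0.05 and -0.00. Of the 9 genes, 3 rose in viAPs (Bmp2, Bmpr1a and Bmpr2) and 2 in scAPs (Bmp2 and Bmpr2). Both HFD arrays lay above both SD arrays for 3 of the 9 in viAPs and below them for 1 (Id3), as they did for 28.9% and 31.2% of all 21789 probe sets. In scAPs the HFD arrays lay above for 6 and below for 1 (Id3), against 21.7% and 18.8%. In viAPs the changes of Bmpr1a and Bmpr2 were larger than those of 61.1% and 41.9% of the filtered probe sets, and in scAPs the change of Bmpr2 was larger than those of 54.6%. The receptor changes were thus near the middle of the set in which they were tested.

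**Figure D2:**
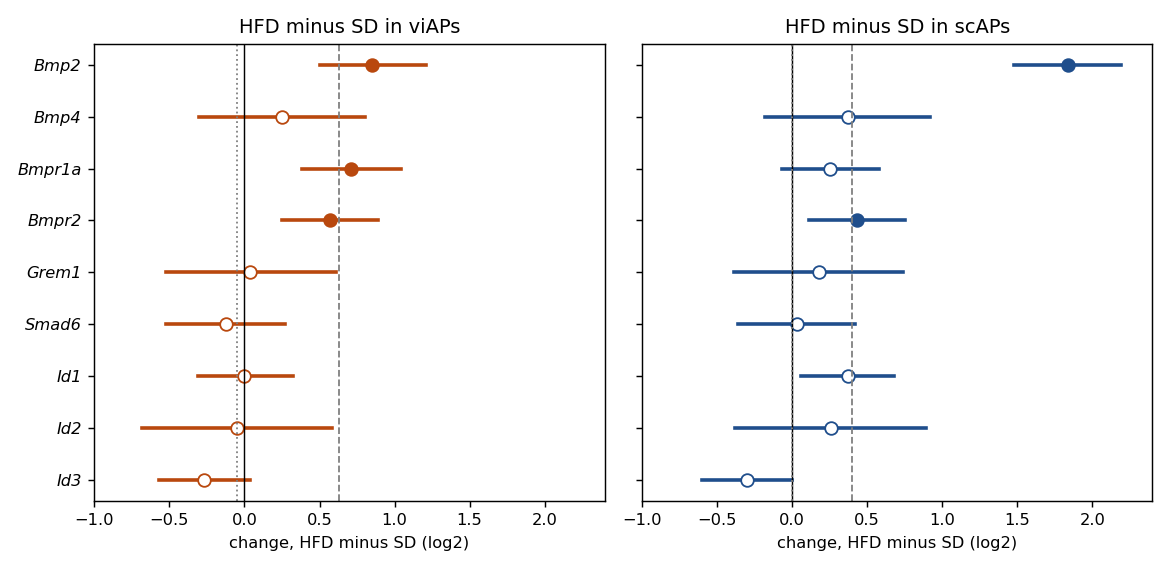
Change on HFD (log2, HFD minus SD) of each gene in viAPs (left) and scAPs (right), with its 95% confidence interval from limma. Filled points passed at an adjusted p under 0.05, the dashed line is the median of the 3076 filtered probe sets and the dotted line that of all 21789. Bmpr1a and Bmpr2 lie beside the dashed line in viAPs, and Bmp2 lies far to its right in scAPs.

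Neither inhibitor among the 9 genes passed the test. Grem1 (probe set 10485948, chr2:113748675-113758648) was at 4.95 and 5.36 on SD and 5.49 and 5.17 on HFD in scAPs, and at 5.95 and 5.29 on SD and 5.83 and 5.49 on HFD in viAPs. These levels are around the median of all probe sets on each array, and the groups overlapped in both depots. The changes were 0.18 in scAPs (95% CI -0.39 to 0.74) and 0.04 in viAPs (95% CI -0.52 to 0.61), with limma adjusted p-values of 0.779 and 0.925. Without SD viAP replicate 4 the viAP change was -0.29 (adjusted p = 0.534).

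Smad6 (probe set 10594418, chr9:63953076-64022085), itself a known target of the pathway, was at 6.48 and 6.79 on SD and 6.55 and 6.77 on HFD in scAPs. In viAPs it was at 6.75 and 7.11 on SD and 6.83 and 6.78 on HFD. The groups overlapped in both depots. The changes were 0.03 in scAPs (95% CI -0.36 to 0.42, limma adjusted p = 0.969) and -0.12 in viAPs (95% CI -0.52 to 0.27, adjusted p = 0.654). Without SD viAP replicate 4, the highest of the 8 arrays for Smad6, the viAP change was 0.05 (adjusted p = 0.896).

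None of the 3 Id genes passed the test in either depot. They did not meet the variability part of the filter and were adjusted over all 21789 probe sets, over which Bmpr2 too did not pass in scAPs (limma adjusted p = 0.172). Id1 (probe set 10477169, chr2:152736251-152737410) is a direct target of BMP-activated Smads. It was at 6.92 and 6.81 on SD and 7.21 and 7.26 on HFD in scAPs, and at 7.07 and 6.89 on SD and 7.10 and 6.87 on HFD in viAPs. The HFD arrays lay above the SD arrays in scAPs and overlapped with them in viAPs. The scAP change of 0.37 (95% CI 0.06 to 0.68) had a limma adjusted p of 0.229, and it was larger than that of 88.4% of all probe sets with 1 symbol. The viAP change was 0.00 (95% CI -0.31 to 0.32), and the difference between the changes, -0.37 (95% CI -0.81 to 0.08, adjusted p = 0.721), did not pass. Id1 is strongly expressed in endothelial cells, whose markers were higher on the same HFD scAP arrays, as given above for Bmp2, and their part in this value was not tested.

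Id2 (probe set 10399691, chr12:25093799-25096092) was at 8.26 and 8.41 on SD and 8.45 and 8.73 on HFD in scAPs, and at 7.92 and 8.92 on SD and 8.38 and 8.35 on HFD in viAPs. The SD viAP arrays were its lowest and highest values, with both HFD viAP arrays between them. The change was 0.26 in scAPs (95% CI -0.38 to 0.89) and -0.05 in viAPs (95% CI -0.68 to 0.58), with limma adjusted p-values of 0.702 and 0.919. The viAP value depended on the array chosen: it was 0.45 without SD viAP replicate 4 (adjusted p = 0.194) and -0.55 without replicate 3 (adjusted p = 0.094).

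Id3 (probe set 10509163, chr4:136143822-136145392) was the one gene of the 9 that was lower on HFD in both depots, though the test was not passed. It was at 9.83 and 9.67 on SD and 9.40 and 9.50 on HFD in scAPs, and at 9.61 and 9.80 on SD and 9.43 and 9.44 on HFD in viAPs. All 4 HFD arrays lay below all 4 SD arrays, as was the case for 7.24% of all probe sets with 1 symbol. The change was -0.30 in scAPs (95% CI -0.60 to 0.00, limma adjusted p = 0.302) and -0.27 in viAPs (95% CI -0.57 to 0.04, adjusted p = 0.216). Over both depots it was -0.28 (SE 0.09, 95% CI -0.50 to -0.07, adjusted p = 0.0707). With the level part of the filter alone this value passed (adjusted p = 0.0399), as it did with 16 added before log2 (-0.28, adjusted p = 0.0409) and after a second quantile normalization (-0.56, adjusted p = 0.0084). In viAPs, Id3 passed after that normalization only (-0.61, adjusted p = 0.0302). Under the alternatives other than leaving out an array, its change over both depots was -0.56 to -0.16 (limma adjusted p from 0.0084 to 0.322). In viAPs it was -0.61 to -0.13 (adjusted p from 0.0302 to 0.646).

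Averaged over both depots, with 4 HFD arrays against 4 SD arrays, the same 3 genes rose that rose in viAPs. Bmp2 changed by 1.34 (SE 0.11, limma adjusted p = 0.000204, and 0.00126 over all 21789), Bmpr1a by 0.48 (SE 0.10, adjusted p = 0.00294) and Bmpr2 by 0.50 (SE 0.10, adjusted p = 0.00229). In this comparison 70.3% of the filtered probe sets rose and 6.14% fell, with a median change of 0.52 (12.1% and 4.96% over all 21789). The change of Bmp2, which entered the filter through its HFD arrays, was larger than that of 99.2% of the filtered probe sets. Those of Bmpr1a and Bmpr2 were larger than 44.2% and 47.8%.

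On SD none of the 9 genes differed between depots by limma at an adjusted p under 0.05, and 0 of the 9 did at an unadjusted p under 0.05. Bmpr1a was the one gene whose SD arrays did not overlap between depots (15.9% of all 21789 probe sets were lower in viAPs without overlap and 16.9% higher), with a viAP minus scAP difference of -0.31 (95% CI -0.64 to 0.02, adjusted p = 0.182), and -0.18 without SD viAP replicate 4. Grem1 had the largest difference, 0.46 (95% CI -0.10 to 1.03, adjusted p = 0.507), and 0.80 without that array (adjusted p = 0.242). This comparison rests on the array that stood apart, and 0.065% of the filtered probe sets were lower in viAPs and 0% higher. Without the array 11.8% were lower and 7.96% higher, and again none of the 9 genes passed.

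The wider pathway was described by 53 further genes, all measured. They were grouped as 14 other genes of the ligand list, 10 receptors and coreceptors, 16 antagonists, 8 Smads and regulators and 5 further targets, and 23 of the 53 passed the filter. In viAPs 14 of the 53 rose, 1 fell and 38 did not pass, with a median change of 0.02. Of the 14 that rose, 13 were among the 23 in the filter, where 67.3% of all probe sets rose. Over all 21789 probe sets with 1 symbol, adjusted together, 8.45% rose and 1.95% fell. Without SD viAP replicate 4, 11 rose and 0 fell. In scAPs 4 rose and 0 fell, with a median change of 0.14, and these 4 were all in the filter, where 36.2% rose, against 1.06% that rose and 0.11% that fell over all 21789. No gene of the lists passed in the test of the difference between the depots' diet changes.

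Of the 14 genes listed with the ligands, 2 rose in viAPs, the ligand Bmp6 and the protease Bmp1. Bmp6, known outside fat for its role in iron balance, was at 7.58 and 6.73 on SD and 8.63 and 8.58 on HFD in viAPs, a change of 1.45 (SE 0.24, limma adjusted p = 0.00201). Without SD viAP replicate 4 the viAP change of Bmp6 was 1.03. In scAPs it was at 7.04 and 7.00 on SD and 7.19 and 7.32 on HFD. On HFD Bmp6 was higher in viAPs than in scAPs by 1.35 (adjusted p = 0.0145), the opposite order to Bmp2. On SD its group means were 7.15 in viAPs and 7.02 in scAPs, and without SD viAP replicate 4 it was 0.56 higher in viAPs. Bmp1, which shares the family's name but processes procollagen and cleaves the antagonist chordin, rose by 0.70 in viAPs (adjusted p = 0.00332) and by 0.49 in scAPs (adjusted p = 0.0232). Gdf10, a relative of Bmp3, did not pass for diet and was 0.68 higher in HFD viAPs than in HFD scAPs (adjusted p = 0.0478, and 0.057 without SD viAP replicate 4).

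Among the receptors and coreceptors, 4 of 10 rose in viAPs and 1 in scAPs. Eng, the coreceptor endoglin, which endothelial and stromal cells both express, was at 9.06 and 8.84 on SD and 9.95 and 9.80 on HFD in viAPs. In scAPs it was at 8.34 and 8.06 on SD and 9.34 and 9.25 on HFD. It rose by 0.93 in viAPs (SE 0.15, limma adjusted p = 0.00197) and by 1.10 in scAPs (SE 0.15, adjusted p = 0.00465), and the endothelial markers given above were higher on the HFD scAP arrays but for the most part not on the HFD viAP arrays. The other rises in viAPs were those of the coreceptors Rgma (0.79, adjusted p = 0.00581) and Rgmb (0.63, adjusted p = 0.0351) and of the type I receptor Acvrl1 (0.59, adjusted p = 0.00567). With SD viAP replicate 4 left out, 3 of the 10 rose in viAPs, and Rgmb did not pass (0.77, adjusted p = 0.0737). Acvr2a, a type II receptor, was 1.15 lower on the log2 scale in HFD viAPs than in HFD scAPs (value -1.15, adjusted p = 0.0465), whereas Eng (0.58) and Rgma (0.69) were higher there, each with an adjusted p of 0.0469. In that comparison 3.8% of the filtered probe sets were lower and 6.31% higher. After a second quantile normalization Acvr2a (-1.14, limma adjusted p = 0.0644) and Rgma (0.63, adjusted p = 0.0678) did not pass, and Eng did (0.55, adjusted p = 0.038).

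Among the antagonists, 2 of 16 rose in viAPs (Nbl1, of the DAN family of BMP antagonists, 0.73, limma adjusted p = 0.0126, and the follistatin-like Fstl1, 0.71, adjusted p = 0.00262), and 1 fell. The gene that fell, Chrdl1, encodes a chordin-like protein that binds BMPs. It was at 8.47 and 10.55 on SD and 8.41 and 7.80 on HFD in viAPs, a change of -1.40 (SE 0.56, adjusted p = 0.0486). In viAPs the fall rested on SD viAP replicate 4, whose level was like those of the SD scAP arrays (10.68 and 10.33). Without that array the viAP change was -0.37. In scAPs Chrdl1 was at 9.34 and 9.96 on HFD, below both SD arrays, a change of -0.85 that did not pass. Over both depots it was the 1 antagonist that fell (value -1.13). That value was -0.61 without SD viAP replicate 4 and -1.36 after a second quantile normalization (limma adjusted p = 0.0143). Between HFD depots Chrdl1 differed by -1.55, viAPs minus scAPs, which did not pass, nor after a second quantile normalization (-1.55, limma adjusted p = 0.0934). This test shares 1 spread over the 4 groups, and for Chrdl1 the SD viAP arrays were far apart. Their SD was 1.47, against 0.43 in HFD viAPs and 0.44 in HFD scAPs (n = 2 each). Without SD viAP replicate 4, which is in neither HFD group, the difference was again -1.55. The failed test is thus no sign that the HFD depots were alike. No antagonist passed for diet in scAPs. Fstl3, a follistatin-like protein that binds activins, was 0.50 higher in HFD viAPs than in HFD scAPs (adjusted p = 0.0371).

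Among the Smads and their regulators, 6 of 8 rose in viAPs and 2 in scAPs. All 6 were in the filter, where 67.3% of probe sets rose in viAPs, and the viAP count was 4 without SD viAP replicate 4 and 2 after a second quantile normalization. Smad7, an inhibitory Smad that answers both BMP and TGF-beta signals, was at 6.52 and 6.55 on SD and 8.00 and 8.03 on HFD in viAPs. In scAPs it was at 6.71 and 6.88 on SD and 8.04 and 7.96 on HFD, so the diet groups were apart by over 1 log2 unit in both depots. Like Bmp2 it exceeded the level of 7 only on the 4 HFD arrays, so both adjusted p-values are given. It rose 2.78-fold in viAPs (log2 change 1.47, SE 0.12, limma adjusted p = 0.000544, and 0.00251 over all 21789) and 2.30-fold in scAPs (1.20, SE 0.12, adjusted p = 0.0026, and 0.0152 over all 21789). Smad6, its relative, did not pass in either depot (values above). In viAPs the receptor Smad Smad5 rose by 0.66 (adjusted p = 0.00316) and the ubiquitin ligases Smurf1 and Smurf2, which mark Smads and receptors for degradation, by 0.65 (adjusted p = 0.00939) and 0.63 (adjusted p = 0.0184). When SD viAP replicate 4 was left out, Smurf2 (0.64, adjusted p = 0.0729) and the receptor Smad Smad1 (0.35, adjusted p = 0.218, against 0.61 and 0.0318 with it) did not pass in viAPs. Smad4, the shared partner of receptor Smads, was another of the 6 that rose in viAPs, with group means of 9.13 on SD and 9.74 on HFD. In scAPs it rose by 0.52 (adjusted p = 0.0303), and after a second quantile normalization that change was 0.29 (adjusted p = 0.137).

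Of the 5 further targets (Id4, Hey1, Msx1, Msx2 and Atoh8), 0 passed in either depot by limma, with changes from -0.36 to -0.15 in viAPs and from -0.55 to 0.35 in scAPs. Over both depots Atoh8, a transcription factor gene that BMP-activated Smads switch on in other cell types, fell by 0.45 on the log2 scale (value -0.45, SE 0.10, limma adjusted p = 0.017). The value was -0.42 and did not pass (adjusted p = 0.0518) without SD viAP replicate 4. After a second quantile normalization, 6 pathway genes rose and 2 fell in viAPs and 2 rose in scAPs.

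**Figure D3:**
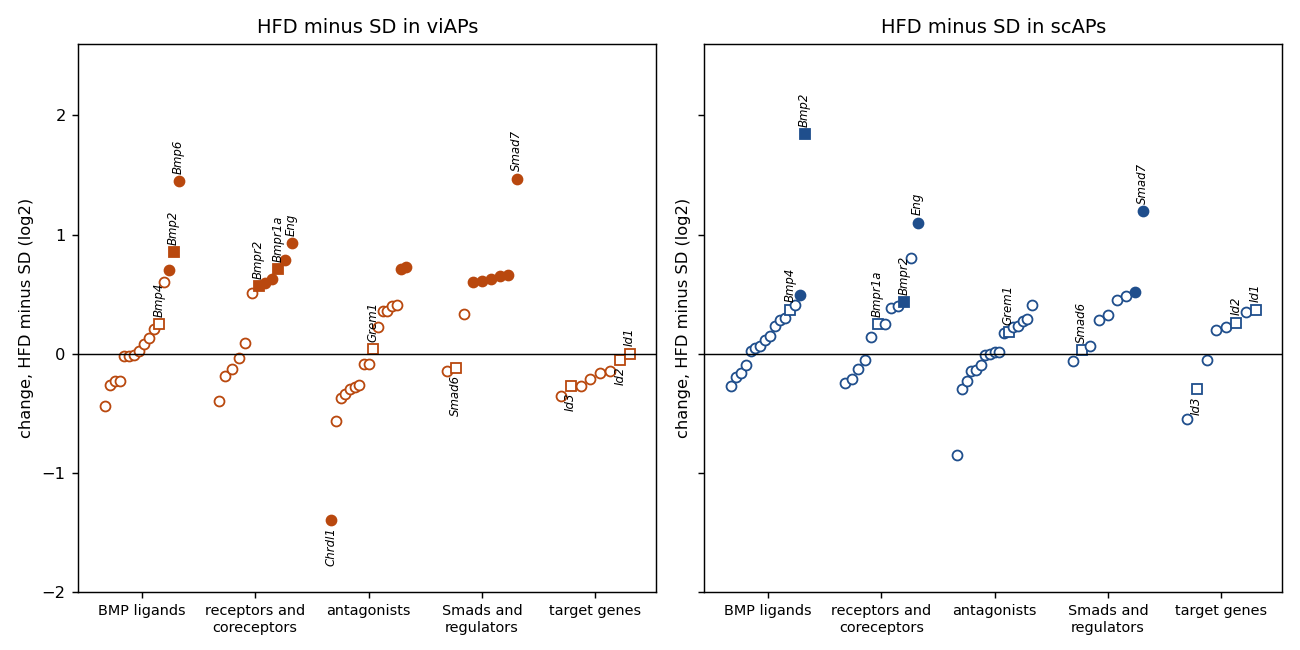
Change on HFD (log2, HFD minus SD) of the 9 genes (squares) and of the 53 other measured genes of the pathway (circles), by role, in viAPs (left) and scAPs (right). Filled symbols passed at an adjusted p under 0.05. Smad7 rose in both depots, whereas none of the target genes is filled in either.

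**Figure D4:**
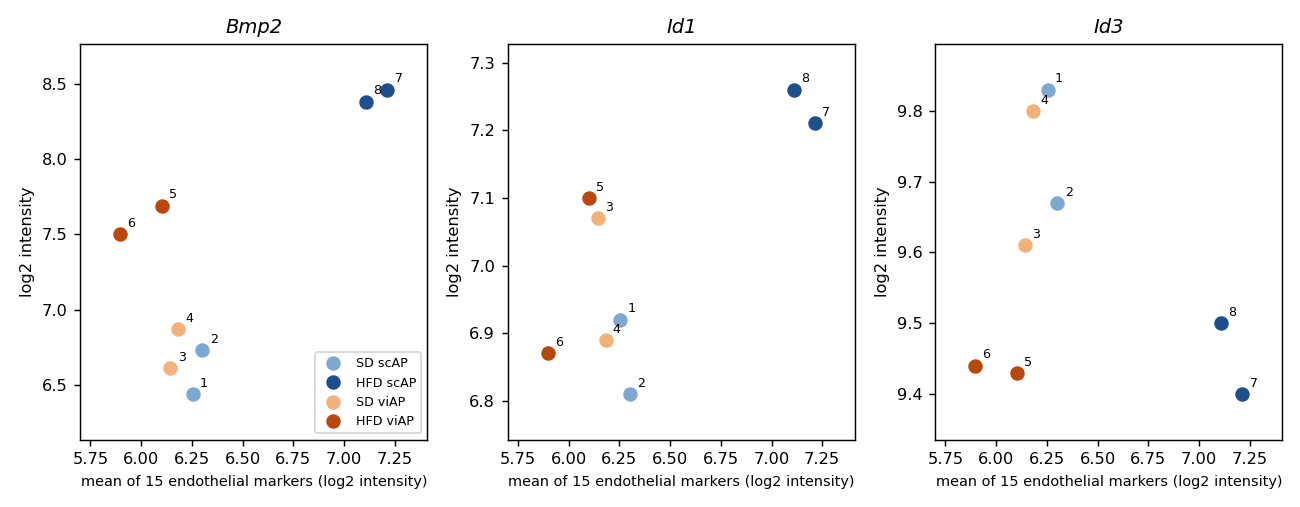
Level (log2 intensity) of Bmp2, Id1 and Id3 on each of the 8 arrays against the mean log2 level of 15 endothelial markers on the same array. Numbers are those of the labels. The HFD scAP arrays (7 and 8) stand apart on the horizontal axis, the HFD viAP arrays (5 and 6) lie above all SD arrays for Bmp2 at lower marker levels than theirs, and all HFD arrays are low for Id3.

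Each of the 9 genes was last compared with the other probe sets with 1 symbol that met the level part of the filter (7130 or 7131 of them), by Pearson correlation of the log2 level over the 8 arrays. The values describe 8 arrays that share 4 groups, and being the highest among these probe sets they carry no test. Bmp2 was followed most closely by Plaur (0.993), Clk4 (0.985) and Tmem119 (0.983). Bmpr1a was followed by Cast (0.993), Svil (0.991) and Cox6a1 (0.990), and Bmpr2 by Smarca4 (0.989), Slc35e1 (0.988) and Cxcl16 (0.982). For Bmp4 they were Epc2 (0.956), Slain2 (0.954) and Anapc11 (0.939). No gene was among the 3 closest of 2 different members.

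The inhibitors and targets had closest genes at lower values. For Grem1 they were Sema6a (0.954), Adh1 (0.947) and Dock6 (0.925), and for Smad6 Limd2 (0.947), Psmb3 (0.937) and Uri1 (0.931). For Id1 they were Adgrf5 (0.976), Pgrmc1 (0.928) and Mars1 (0.920), for Id2 Ccdc102a (0.942), Ube2e1 (0.931) and Arf5 (0.927), and for Id3 Adck5 (0.974), Serping1 (0.966) and Rps21 (0.964).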

How the data were processed

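RNA of bead-purified APs, pooled from 3 mice per array, was measured on 8 arrays, 2 for each combination of diet and depot as the labels give them. For each of 35556 probe sets the authors deposited a whole-number intensity per array on a linear scale, summarized by RMA with quantile normalization. According to the submitters' notes RMA was run with Affymetrix Expression Console 1.1, whereas the study's methods name an R package in its place, and how the log values were turned back to whole numbers is not given in the sources used here. RMA draws the arrays towards 1 distribution, and a shift shared by most genes can be reduced by it. Here log2 of these values was taken without another scaling. Tests of an array platform are limited in precision by the number of arrays, here 2 per group.

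The annotation gave 21789 probe sets 1 symbol, 1621 several and 12146 none. All 9 members were matched by Entrez ID. The 21789 probe sets were fitted on the 8 arrays together, with a mean for each group, using limma 3.58.1 (lmFit, contrasts.fit and eBayes; R 4.3.3). The residual degrees of freedom were 4 and the prior ones 4.58. This was done for 6 comparisons: HFD against SD in viAPs, in scAPs, their difference and their mean, and viAPs against scAPs on SD and on HFD. Benjamini-Hochberg adjustment ran over the 3076 probe sets past the filter of the study for genes in it, and over all 21789 for others. No fold minimum was set. The procedure was tested on simulated data.

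The members and gene lists were chosen with earlier results of these data known. The genes named were all members, of each further pathway list the called genes (at most the 4 with the largest change per comparison), marker genes needed beside a result, and the 3 genes most correlated with each member. Tbx15, Tcf21 and Cdh5 were named for this purpose. Of the antagonist list 1 gene is not reported here.

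Alternatives were a fit of only the arrays compared, 16 added before log2, arrays centred on their medians, a second quantile normalization, no filter, the level part of the filter alone, no eBayes, and leaving out each array. A fit over all 35556 probe sets, as in the study's methods, was added after seeing the data. Promoter windows came from RefSeq. Plots were made in Python 3.11.15 (matplotlib 3.10.9).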

Additional observations from a re-analysis of the deposited data

How the results depend on the processing

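No paired analysis was possible because no replicate number of the labels occurs in more than 1 group. Of the 9 genes, 2 passed in scAPs, and 1 (Bmp2) did so in a fit of only the arrays compared, after a second quantile normalization, without the filter, with the level part of the filter alone, without eBayes and in the fit over all probe sets, which was chosen after seeing the data. Leaving out each array gave 1 to 2. The difference between the depots' changes had 0 calls, and 0 to 1 when each array was left out. Between HFD depots 1 gene passed, 0 without eBayes (Bmp2, adjusted p = 0.21), 0 in the fit over all probe sets, and 0 to 1 when each array was left out. Where an array is left out, the lone array of its group is assumed to vary like the other groups. The cause of these losses was not tested, apart from the smaller number of arrays. Over both depots Bmpr1a lost its call after a second quantile normalization (0.21, adjusted p = 0.0834) and Bmp4 gained one with median centring (0.43, adjusted p = 0.0394).

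Of 846 recomputed changes of single genes, 45 turned sign where neither value was called. Other scalings turned the viAP changes of Bmp4 (-0.06) and Id1 (-0.08) under a second quantile normalization and those of Smad6 (0.02) and Id2 (0.09) under median centring. Median centring moved the median change of all probe sets with 1 symbol in viAPs from -0.05 to 0.09, and in scAPs from -0.00 to 0.09. A second quantile normalization changed the calls in the filtered set from 2071 higher and 165 lower to 1213 and 218 in viAPs, from 1115 and 61 to 481 and 81 in scAPs, and from 0 and 2 to 105 and 156 between SD depots. It lowered the median change of the filtered set from 0.63 to 0.38 in viAPs and from 0.40 to 0.25 in scAPs. In scAPs 13 filtered probe sets rose without HFD scAP replicate 7 and 305 without replicate 8. Averaging the probe sets of a gene was not run, since each member had 1. With 2 arrays per group, whether Id3 passed over both depots depended on the setting, as the values given with it show.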
